A study of Mus musculus with 66 samples.

Results

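The 26S proteasome is the protease complex that degrades ubiquitin-tagged proteins, and its subunit genes were followed here in mouse lung from midgestation to adulthood, with and without the transcription factor Nrf2. The members were all genes with a single platform symbol of Psma, Psmb, Psmc or Psmd followed by a number, which gave 39 of the 18193 genes measured. Each gene was represented by the brightest of its probe sets, from 78 probe sets in all. They comprised 34 standard subunit or base chaperone genes, the 3 immunoproteasome genes Psmb8, Psmb9 and Psmb10, and 2 tissue forms, the germ cell subunit Psma8 and the thymus subunit Psmb11. Homogenized whole lung from time-mated mice was profiled in 22 groups of 3 samples, which were Nrf2+/+ lungs (wild type) or Nrf2-/- lungs (knockout) of 11 ages. Embryonic days (E) 13.5 and 15.5 were followed by E17.5 and E18.5, the day of birth (PND0), each postnatal day from PND1 to PND4, and then PND14 and PND42. The labels give a genotype of the whole animal and name no cell type, and dams and postnatal mice were fed AIN-76A. At E13.5 each sample combined 2 to 3 lungs, and each other sample came from 1 lung.

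The core particle of the proteasome is a barrel of stacked rings. The outer alpha rings, encoded by Psma genes, gate the entrance, and the inner beta rings, encoded by Psmb genes, carry the catalytic sites on Psmb5, Psmb6 and Psmb7. The regulatory particle caps the barrel: a base with a ring of ATPases (Psmc genes) unfolds the substrate, and a lid (most Psmd genes) includes Psmd14, which removes ubiquitin. In cells exposed to interferon, and in leukocytes, Psmb8, Psmb9 and Psmb10 take the places of the catalytic subunits and alter the peptides made for MHC class I. Nrf2, encoded by Nfe2l2, is known to raise transcription of several subunit genes under oxidative stress, and the related factor Nfe2l1 restores subunit levels when the proteasome is blocked.

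All levels are log2 of the normalized array intensity plus 16, and differences are on that scale, so those of dim genes are understated. In the knockout the brighter Nfe2l2 probe set stood at 4.41 to 8.26 over 33 libraries, against 10.49 to 12.25 in the 33 wild-type libraries. A second, dimmer probe set stood at 4.36 to 10.19 in knockout and 4.46 to 9.72 in wild type. It was higher in knockout by 0.51 (limma, adjusted p = 0.00013). The 24 arrays of PND1 to PND4 had been scaled differently before deposit (2% trimmed means of 171.7 to 307.14) from the other 42 (500), so steps between ages were taken within either set. In 8 libraries thymocyte genes stood apart: they had a mean of 8.58 or more over Rag1, Dntt and Cd8b1, where the other 58 reached at most 7.91: wild type PND14 libraries 2 and 3, PND0 library 2, E18.5 library 3 and PND42 library 1, and knockout PND2 libraries 1 and 3 and E18.5 library 1. The threshold of 8.5 that separates them was set after these values were seen. Genes of other tissues also varied between libraries. The mean of 5 liver genes was 12.69, 14.38 and 13.03 in wild-type library 2 of PND1, PND2 and PND3. It was 12.91 in wild-type PND4 library 3 and 11.89 in knockout PND2 library 3, but 5.20 to 5.78 in knockout PND3. Skeletal muscle genes reached a mean of 13.34 in knockout PND3 library 2, and means of 4 oesophagus genes ran from 5.09 to 11.63. Their part in the proteasome values was not tested. The knockout libraries labelled E17.5 and E18.5 were ordered opposite to wild type in lung epithelial and cell cycle genes. The mean of 6 epithelial genes was 12.75 to 12.83 in knockout E17.5 and 11.98 to 12.36 in knockout E18.5, whereas wild type stood at 12.23 to 12.55 and then 12.69 to 13.03. The mean of 11 cell cycle genes was 10.15 to 10.53 in knockout E17.5 and 11.11 to 11.52 in knockout E18.5, against 10.49 to 10.97 and then 9.77 to 10.73 in wild type. The main counts that use knockout E18.5 are given beside counts with E17.5, and the cause of this order was not tested. In bulk samples, fewer cells of a type and less RNA per cell cannot be told apart.

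The promoters of the members were read for short letter patterns. RefSeq promoters (GRCm38.p6, 250 bases before to 50 after a gene start, 34 windows for 32 of the 39 members) were searched on both strands. The core of the antioxidant response element, TGACNNNGC, to which Nrf2 with a small Maf partner is known to bind, was found in 5 of 34 windows, a share of 14.7% against 12.4% of all 32851 promoter windows of that length. Those 5 belong to Psmb5, Psmb6, Psmc6, Psmd9 and Psmd12. Windows of Psmb5, Psmd9 and Psmc6 are shown, on the strand of the gene and with the match in capitals, so that the element can be compared between a catalytic subunit, a chaperone and an ATPase.
Psmb5, chr14:54618016-54618060, minus strand, 47 bases before the start: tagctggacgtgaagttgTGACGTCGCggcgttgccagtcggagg
Psmd9, chr5:123228141-123228185, plus strand, 31 bases before the start: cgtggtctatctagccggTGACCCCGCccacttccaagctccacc
Psmc6, chr14:45329579-45329623, plus strand, 227 bases before the start, match on the opposite strand: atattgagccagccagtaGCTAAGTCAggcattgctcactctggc
The pattern CCGGAAG, the core recognised by ETS factors, was in 11 of 34 member windows, 32.4% against 8.86% of all windows, which were not matched for brightness. It was in 10 genes: Psma6, Psmc1, Psmc2, Psmc6, Psmd2, Psmd4, Psmd6, Psmd11, Psmd12 and Psmd13. Over the 22 group means, their Pearson r with the mean of the other standard genes ran from 0.37 (Psmd11) to 0.95 (Psmc6). A link between the pattern and the levels was not tested. Windows of a base ATPase, the base scaffold Psmd2 and a lid gene are given as examples of the pattern in the regulatory particle.
Psmc1, chr12:100110156-100110198, plus strand, 28 bases before the start, match on the opposite strand: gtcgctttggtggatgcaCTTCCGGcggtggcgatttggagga
Psmd2, chr16:20651608-20651650, plus strand, 26 bases before the start, match on the opposite strand: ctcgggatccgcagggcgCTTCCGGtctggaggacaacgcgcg
Psmd6, chr14:14120966-14121008, minus strand, 45 bases before the start: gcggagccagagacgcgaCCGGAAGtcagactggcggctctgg
The CCAAT box, the letters of the NF-Y site, was in 13 of 34 windows, 38.2% against 37.4%. A shorter form of the antioxidant response element, TGANNNNGC, which includes the matches of TGACNNNGC, was in 20 of 34, 58.8% against 41.3%. In all 6 patterns were looked at, of which these 4 are described, and a match is a description of letters, not a measured binding site.

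On the brightest probe set of each gene, the standard proteasome fell almost as a whole in wild-type lung between E13.5 and E18.5. The mean over the 34 standard genes was 11.85 ± 0.03 (SD, n = 3) at E13.5, 11.78 ± 0.02 at E15.5, 11.38 ± 0.06 at E17.5 and 11.20 ± 0.15 at E18.5. Between E13.5 and E18.5, 31 of the 34 standard genes fell at an adjusted p under 0.05, none rose, and all 34 differences were below 0. Their median difference was -0.68, against -0.07 over all genes. Over all 39 members, 32 fell, where 25.2% of all genes and 30.6% of the 3592 genes with a mean level of 10 or more fell, and 2 rose, where 20.1% of all genes rose. The 34 differences were below 0 under each of 4 scalings of the arrays.

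**Figure D1:**
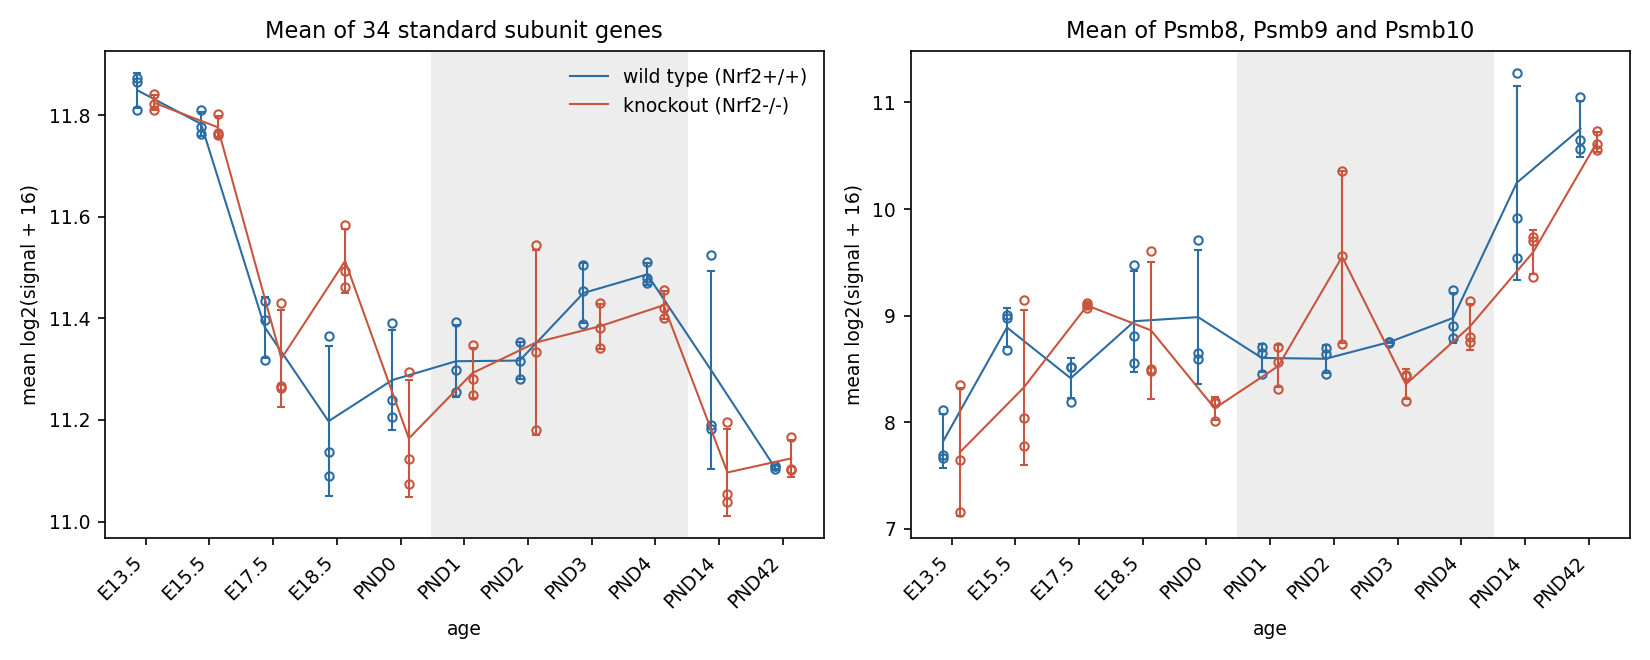
Mean log2 intensity of the 34 standard genes (first panel) and of Psmb8, Psmb9 and Psmb10 (second panel) against age in wild type and knockout; circles are single samples, lines join group means of 3 and bars are SD. The standard mean goes from 11.85 at E13.5 to 11.20 at E18.5 in wild type, the immunoproteasome mean climbs to 10.75 at PND42, and the grey band marks the ages whose arrays were scaled differently.

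By position in the complex, 7 of 7 beta ring genes, 6 of 6 base ATPases, both base scaffold genes, the ubiquitin receptor Psmd4 and 8 of 8 lid genes fell in this wild-type step. Psmb7, which carries the trypsin-like site, stood at 12.69, 11.92 and 11.68 at E13.5 and at 10.90, 10.26 and 10.47 at E18.5. It had the largest fall of the standard genes, -1.55 ± 0.24 (SE, n = 3 per group, adjusted p = 5.9e-07). Psmc5, an ATPase of the base, went from 11.70, 11.49 and 11.60 to 10.38, 10.34 and 10.95, a fall of -1.04 ± 0.11 (adjusted p = 6.3e-11). The lid genes Psmd3 and Psmd7 each fell by 1.03. For each of these 4 genes all 3 samples at E18.5 lay below all 3 at E13.5. Psmb5, the chymotrypsin-like subunit, stood at 12.29, 12.04 and 12.19 and then at 11.36, 11.24 and 11.51. The base scaffold Psmd1 stood at 11.71, 11.85 and 11.99 and then at 11.01, 10.92 and 11.07. The groups of both genes were separate. In the alpha ring, counted with the dim germ cell form Psma8, 6 of 8 genes fell, Psma8 among them, with a median of -0.50. Psma1 stood at 12.78, 12.45 and 12.60 before and 12.10, 11.96 and 12.17 after. Differences that did not pass were -0.16 for Psma6 and -0.08 for Psma2, both alpha ring genes, and -0.24 for Psmd5, a chaperone of base assembly. Leaving out single libraries gave 32 to 35 members called. Dimmer probe sets of the members did not all share the wild-type fall. The 3 others of Psma1 and the second of Psmc1, Psmd2 and Psmb4 lay above 0, none called. All others of Psmc4, Psmc6, Psmb3, Psma7 and Psmd6 lay below 0 and were called. The cell cycle list fell in the same step in 11 of 11 genes, with a median of -1.72, and its part in the proteasome values was not tested.

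Knockout lung showed a smaller fall to the libraries labelled E18.5. Of the 39 members, 26 fell and 3 rose, against 14.5% of all genes (19.4% of bright ones) falling and 14.6% rising. The median of the standard genes was -0.38, against -0.03 over all genes. The largest fall was that of Psma8, at -0.97 ± 0.31 (adjusted p = 0.018), but this germ cell form was dim, at 4.13 to 6.86 in all libraries. Falls of the standard genes were led by Psmd1 at -0.63 ± 0.09 (adjusted p = 3.2e-07) and Psmd7 at -0.58 ± 0.11 (adjusted p = 5.4e-05). Psmb7 was the standard gene that rose, from 10.90, 11.09 and 11.25 to 12.30, 11.76 and 11.99, by 0.94 ± 0.24 (adjusted p = 0.0029). Its samples of the 2 ages did not overlap, and neither did those of wild type, which moved the other way.

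The step differed between the genotypes in 8 members, all with a less negative or more positive value in knockout, where 4.51% of all genes differed in that direction. Psmb7 differed most, by 2.49 ± 0.34 (adjusted p = 1.7e-06), then Psmd3 by 0.93 ± 0.21 (adjusted p = 0.0029). The ATPases Psmc3 (0.58) and Psmc5 (0.51), the beta ring genes Psmb5 (0.52) and Psmb2 (0.46), the lid gene Psmd13 (0.50) and the chaperone Psmd9 (0.44) made up the rest. This count was 2 to 10 when single libraries were left out, 2 without wild-type E18.5 library 2 and 3 without knockout E18.5 library 1. It was 4 without knockout E13.5 library 2 or 3, and 5 without knockout E13.5 library 1, wild-type E13.5 library 2 or 3 or wild-type E18.5 library 1. To E17.5 instead, 27 members fell in wild type (20.2% of all genes) and 28 in knockout (20.6%), with standard medians of -0.50 and -0.54, and the step differed between genotypes in 0 of 39 members (4 at an unadjusted p under 0.05, limma).

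**Figure D2:**
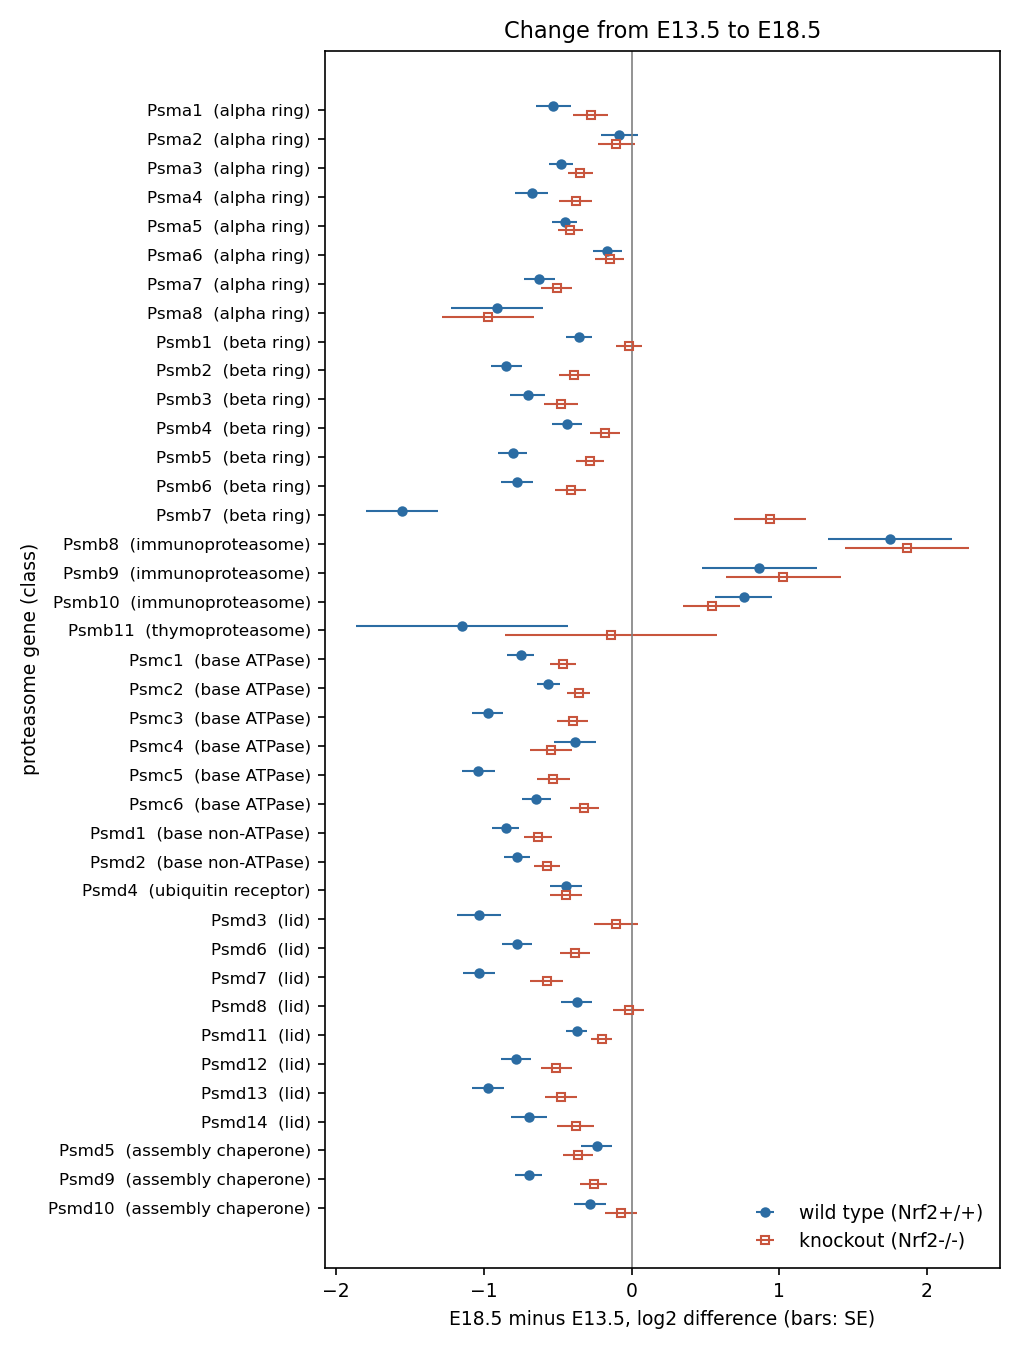
Difference in log2 intensity between E18.5 and E13.5 for each member gene, in wild type (filled circles) and knockout (open squares), with bars of 1 SE. Nearly all standard genes lie left of 0 in both genotypes, Psmb7 lies at -1.55 in wild type and 0.94 in knockout, and Psmb8, Psmb9 and Psmb10 lie right of 0.

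At E18.5, 13 of 39 members were higher in knockout and none lower, against 7.1% of all genes and 12.3% of bright genes higher. The median of the standard genes was 0.29, against 0.02 over all genes, and 33 of 34 lay above 0. In 22 of the 34 all 3 knockout samples exceeded all 3 wild-type samples, where 16.9% of all genes had that order. The calls fell on 4 of 7 beta ring genes, 3 of 6 ATPases, 1 of 2 base scaffolds, 4 of 8 lid genes and 1 of 3 chaperones. They fell on 0 of 8 alpha ring genes (Psma8 included), whose median was 0.15.

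Psmb7 had the largest difference at E18.5, 1.47 ± 0.24 (n = 3 per group, adjusted p = 4.2e-05) or 2.78-fold. The samples already given for it, 10.26 to 10.90 in wild type and 11.76 to 12.30 in knockout, were separate. Psmd3, a scaffold of the lid, stood at 9.82, 9.73 and 10.39 in wild type and at 10.82, 10.55 and 10.68 in knockout. Its difference was 0.71 ± 0.15 (adjusted p = 0.001). Psmd13, another lid gene, stood at 9.65, 9.44 and 9.77 against 10.27, 10.09 and 10.13, a difference of 0.54 ± 0.11 (adjusted p = 6e-04). A second, dimmer Psmd13 probe set gave 0.21 (adjusted p = 0.21). Psmb5 stood at 11.36, 11.24 and 11.51 in wild type and 11.78, 11.69 and 11.73 in knockout, and differed by 0.37 ± 0.10 (adjusted p = 0.0095). The groups of Psmd3, Psmd13 and Psmb5 did not overlap. The samples of the ATPase Psmc5 did come close, with 10.38, 10.34 and 10.95 in wild type and 11.10, 10.99 and 10.97 in knockout, for a difference of 0.47 ± 0.11 (adjusted p = 0.0045). The other members called at this age were Psmc3, Psmd6, Psmb2, Psmc1, Psmd12, Psmb6, Psmd9 and Psmd2, with differences between 0.31 and 0.45. For Psmc1 and Psmd2 the mean over all probe sets of the gene was -0.00 and -0.16 (log2 differences of -0.0014 and -0.164), since a second probe set of each was dim and pointed the other way. Not called were Psma1, at 12.10, 11.96 and 12.17 against 12.44, 12.32 and 12.35, and Psmd1, at 11.01, 10.92 and 11.07 against 11.38, 11.12 and 11.18, although neither pair of groups overlapped. The 3 other Psma1 probe sets, all dimmer, lay below 0 at E18.5, with none called.

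**Figure D3:**
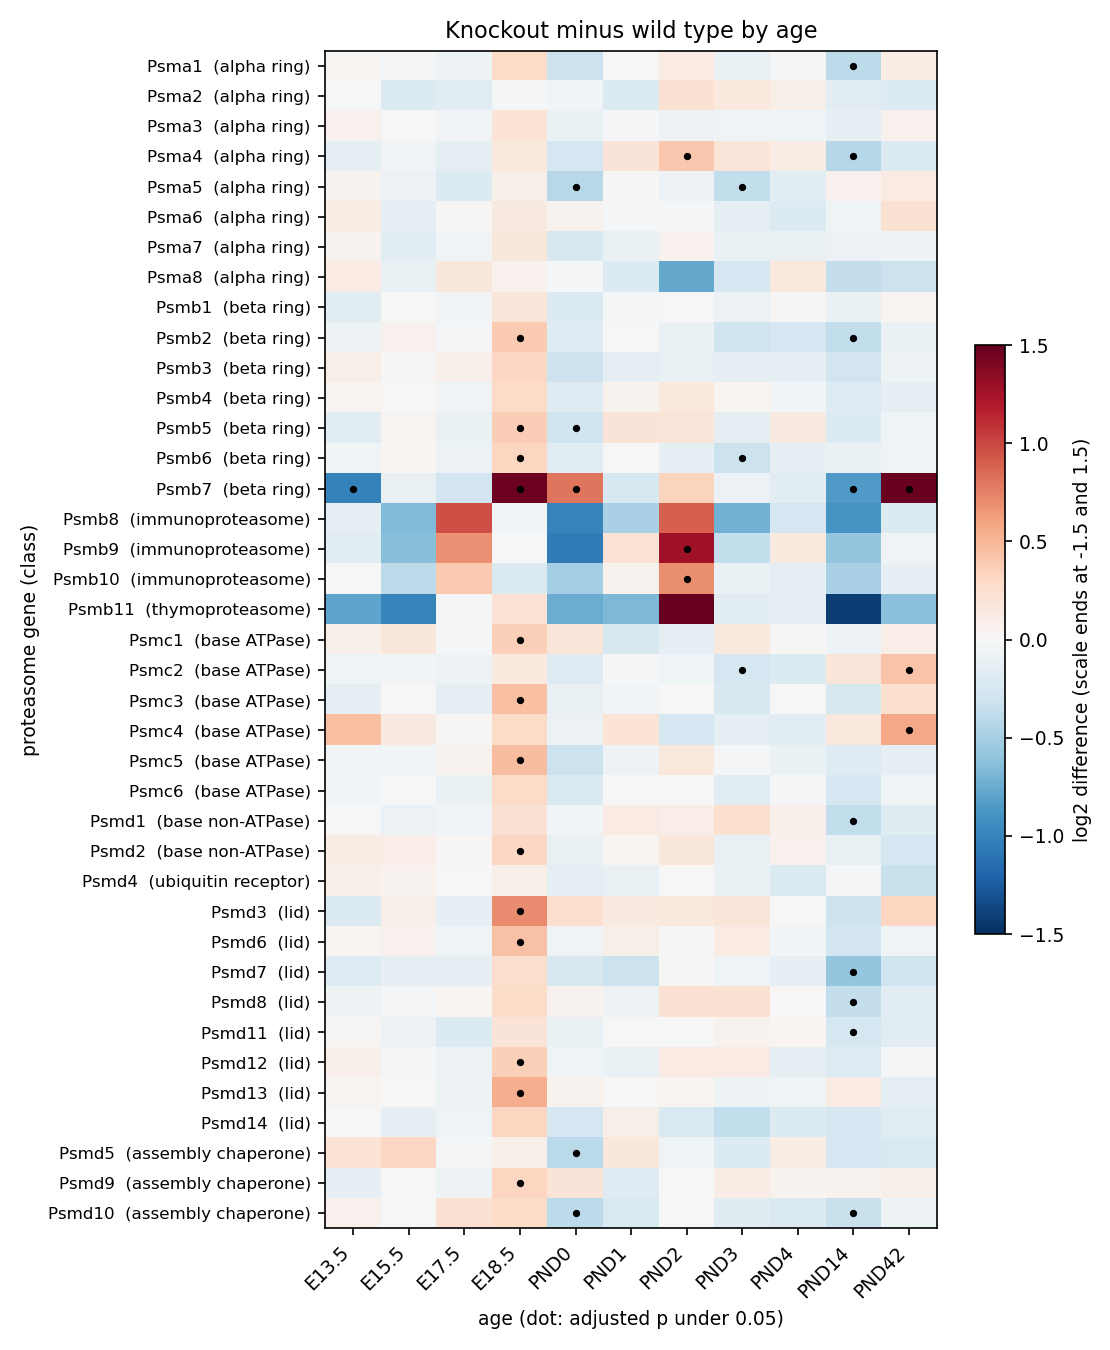
Knockout minus wild type in log2 intensity for each member (rows, by place in the complex) at each age (columns), with the colour scale ending at -1.5 and 1.5; a dot marks an adjusted p under 0.05. The E18.5 column is positive in 33 of 34 standard genes with 13 dots, the PND14 column holds 9 dots on negative values, and the Psmb7 cells change sign from age to age.

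The count at E18.5 depended on single libraries and on the libraries labelled E17.5. It was 7 without knockout library 1, 7 without wild-type library 1, 4 without wild-type library 2 and 21 without wild-type library 3. Psmb7, Psmd3, Psmd6 and Psmd13 passed in all 6 of these fits. Without the 8 libraries with high thymocyte genes 19 members were higher, with a standard median of 0.33. Knockout libraries labelled E17.5, set against wild-type E18.5, gave 1 member higher, Psmd10 at 0.48 ± 0.11 (adjusted p = 0.013, 0.638% of all genes), and a standard median of 0.10. For Psmb7 that difference was 0.20 and for Psmd3 0.11. Knockout libraries labelled E18.5, set against wild-type E17.5, gave 0 of 39 members called (5 at an unadjusted p under 0.05, limma, with 0.126% of all genes higher), though Psmb7 stood 0.98 ± 0.24 higher (adjusted p = 0.057). Within the knockout, E18.5 exceeded E17.5 in 4 members, Psmb7 by 1.27, Psmd3 by 0.59, Psmc3 by 0.35 and Psmd11 by 0.25 (2.87% of all genes). In wild type E18.5 was below E17.5 in 2 members, Psmd13 by -0.41 and Psmd9 by -0.36 (0.77% of all genes). The change between these ages differed between genotypes in 7 members, where 5.64% of all genes did so in that direction: Psmb7, Psmd3, Psmd13, Psmc3, Psmd6, Psmb5 and Psmd11. All 34 standard genes had a more positive change in knockout.

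Genes of other cells and of the cell cycle moved at E18.5 as well, where 7.1% of all genes were higher in knockout and 5.3% lower. Cell cycle genes were higher in 8 of 11, with a median of 1.11, and the groups of list means were separate. Cartilage genes were higher in 2 of 5 (list means of 5.77 to 6.42 in wild type and 7.04 to 10.08 in knockout). Epithelial genes were lower in 1 of 6, alveolar macrophage genes in 1 of 6 (7.92 to 8.43 against 7.49 to 7.66), neutrophil genes in 1 of 5 (8.29 to 8.99 against 7.62 to 8.02) and endothelial genes in 1 of 4. Leukocyte list means overlapped, at 7.11 to 8.46 and 7.19 to 8.47. With the knockout libraries labelled E17.5 in place of E18.5, 0 of the cell cycle, cartilage, epithelial, neutrophil and endothelial genes passed against wild-type E18.5 (limma, 0 at an unadjusted p under 0.05), and 0 of 9 leukocyte genes (1 unadjusted). Alveolar macrophage genes were then higher in 2 of 6, with list means of 9.07 to 9.32 in knockout. Oesophagus genes were lower in 1 of 4 (limma, 4 at an unadjusted p under 0.05), with a median of -3.11. Liver genes passed in 0 of 5 (3 unadjusted, median 3.95) and thymus genes in 0 of 4 (2 unadjusted, median -1.69). Erythroid and skeletal muscle genes had 0 at an unadjusted p under 0.05. The part of these lists in the proteasome difference was not tested.

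From E18.5 to birth (PND0) the genotypes parted again, in a step that shares the E18.5 samples with the one before. In wild type 1 member rose, Psmc5 by 0.46 ± 0.11 (adjusted p = 0.0088), where 3.26% of all genes rose. It was 0 without wild-type E18.5 library 1 or 2 or PND0 library 1 or 2, and 4 without E18.5 library 3. In knockout 21 of 39 members fell, all standard genes, against 19.2% of all genes and 31.9% of bright genes, with a standard median of -0.31. Psmb7 went from 12.30, 11.76 and 11.99 to 11.69, 10.99 and 10.86, by -0.84 ± 0.24 (adjusted p = 0.0066). The base chaperones Psmd10 and Psmd5 fell by 0.72 and 0.69, and the alpha ring gene Psma5 by 0.63. Psmd10 had stood at 9.61, 9.72 and 9.63 and came to 8.95, 8.87 and 8.96, without overlap.

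The change to birth was more negative in knockout than in wild type in 21 members, and all 39 values lay below 0. Of all genes 10.1% had that difference, and of bright genes 18.7%. Psmc5 differed by -0.78 ± 0.16 (adjusted p = 0.00039), Psmd10 by -0.67 ± 0.15 (adjusted p = 0.0015) and Psmb5 by -0.66 ± 0.14 (adjusted p = 0.00047). This count was 10 without wild-type PND0 library 2, 11 without knockout E18.5 library 1, 11 without wild-type E18.5 library 2 and 13 without knockout PND0 library 3. Counted from E17.5 instead, 14 members fell in knockout (16.3% of all genes) and the change differed in 3, Psmb8, Psmb10 and Psmd10 (3.95%). In wild type 1 member, Psma5, was then lower at birth (7.06% of all genes). Cell cycle genes fell in 11 of 11 in the knockout step from E18.5, with a median of -2.77, and in 10 of 11 in the knockout step from E17.5, with a median of -1.69. Their part was not tested.

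At PND0 the knockout was higher in 1 member (5.85% of all genes, 9.44% of bright genes) and lower in 4 (8.62% of all genes, 16.7% of bright genes). With array medians subtracted 1 was higher and 0 lower. Psmb7 was higher, at 11.69, 10.99 and 10.86 against 10.58, 10.56 and 9.98, by 0.81 ± 0.24 (adjusted p = 0.021). Psma5 stood at 11.63, 11.90 and 11.77 in wild type and at 11.36, 11.41 and 11.27 in knockout, lower by -0.42 ± 0.08 (adjusted p = 0.00028). Both genes had separate groups. Psmd5 stood at 9.87, 9.86 and 9.73 against 9.49, 9.40 and 9.35, a difference of -0.41 ± 0.10 (adjusted p = 0.0044). Psmd10, which also goes by gankyrin, stood at 9.19, 9.55 and 9.23 against 8.95, 8.87 and 8.96 and differed by -0.40 ± 0.11 (adjusted p = 0.0094). Again all knockout samples were the lower ones. Psmb5 overlapped between genotypes (11.29, 11.52 and 11.40 against 11.39, 10.97 and 10.95) and was called at -0.30 ± 0.10 (adjusted p = 0.035). In 11 of 34 standard genes all knockout samples were below wild type, where 18.6% of all genes were. Psma5 and Psmd5 passed whichever of the 6 libraries was left out, and the count was 3 without wild-type library 2, 1 of the libraries with high thymocyte genes. Of 2 other, dimmer Psma5 probe sets, 1 lay above 0 at PND0 and 1 below, neither called. Over 11 alternative settings the Psma5 difference ran from -0.425 to -0.0691, and 9 kept the call. Cell cycle genes were lower in 3 of 11 (list means of 8.99 to 10.01 in wild type and 8.37 to 8.61 in knockout).

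Averaged over the 11 ages, Nrf2 deletion was accompanied by small differences in 3 of 39 members, all lower in knockout, against 4.5% of all genes and 9.21% of bright genes. The median over the standard genes was -0.02 and over all genes 0.01, and with array medians subtracted these were 0.02 and 0.05, with 2 members higher and 1 lower. Psmd7, a lid subunit that pairs with the deubiquitinase Psmd14, had a lowest, median and highest level of 9.85, 10.33 and 11.63 over 33 wild-type libraries and 9.33, 10.14 and 11.45 over 33 knockout libraries. Its difference was -0.16 ± 0.03 (adjusted p = 0.00053), below 0 at 9 of 11 ages. Psmd14 had 11.45, 11.95 and 12.44 against 11.31, 11.85 and 12.40, and differed by -0.11 ± 0.04 (adjusted p = 0.037), below 0 at 8 of 11 ages. Psma5 had 11.34, 12.11 and 12.55 against 11.27, 12.04 and 12.55, and differed by -0.09 ± 0.03 (adjusted p = 0.012), with 6 of 11 ages below 0 and -0.03 (adjusted p = 0.67) in a second bright probe set. The ranges of the genotypes overlapped in all 3 genes. The catalytic subunit Psmb5 had 11.13, 11.47 and 12.29 against 10.95, 11.45 and 12.09, and the 95% interval of its difference was -0.06 to 0.05. Psma1 had 11.59, 11.96 and 12.80 against 11.39, 11.92 and 12.72, with a difference of -0.03 and an interval of -0.11 to 0.04. Psmd1 had 10.73, 11.04 and 11.99 against 10.54, 11.09 and 11.96, with an interval of -0.05 to 0.06. For comparison, 10 of 12 known Nrf2 targets on a reference list were lower in knockout on average, with a median of -0.35.

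At the remaining embryonic and neonatal ages few members differed. At E13.5 Psmb7 was lower in knockout by -1.02 ± 0.24 (adjusted p = 0.015, 1.24% of all genes lower), with 10.90, 11.09 and 11.25 against 12.69, 11.92 and 11.68 and no overlap. It did not pass without knockout library 1, knockout library 2 or wild-type library 1, and 2 members passed without wild-type library 3. Epithelial genes were higher in knockout in 4 of 6 at that age, where 0.715% of all genes were higher. Their list means were 7.55 to 8.02 in wild type and 8.83 to 11.52 in knockout. None of the 39 members passed in limma at E15.5 (2 at an unadjusted p under 0.05, 0.143% of all genes called), E17.5 (5 unadjusted, 1.64%), PND1 (5 unadjusted, 2.55%) or PND4 (4 unadjusted, 0.643%). At PND2, 3 members were higher in knockout (3.11% of all genes): Psma4 by 0.41 ± 0.11 (adjusted p = 0.018), Psmb10 by 0.70 ± 0.19 (adjusted p = 0.019) and Psmb9 by 1.28 ± 0.39 (adjusted p = 0.038). Psma4 stood at 11.50, 11.40 and 11.77 against 12.24, 11.84 and 11.82. Knockout PND2 libraries 1 and 3 are among those with high thymocyte genes. Without library 1 the differences were 0.27, 0.52 and 0.82, none of which passed (adjusted p = 0.25, 0.21 and 0.35). Without library 3 Psma4 passed at 0.48 (adjusted p = 0.013), while Psmb10 had 0.64 (adjusted p = 0.073) and Psmb9 1.33 (adjusted p = 0.062). Psma4 also did not pass without wild-type library 1 (0.38, adjusted p = 0.073) or 2 (0.33, adjusted p = 0.13), and Psmb9 did not pass without any 1 of the 3 wild-type libraries (adjusted p of 0.12, 0.073 and 0.075). Psmb10 did not pass without wild-type library 1 (0.61, adjusted p = 0.1). Without all 8 such libraries they were 0.28, 0.21 and 0.46, none passing, in a fit that keeps 1 knockout library at PND2 and assumes that it varies like the other groups. At PND3, 3 members were lower (6.69% of all genes, 11.7% of bright genes). Psma5 stood at 12.41, 12.31 and 12.35 against 12.10, 11.99 and 11.87 (-0.37 ± 0.08, adjusted p = 0.0021), without overlap, and passed whichever library was left out. The ATPase Psmc2 stood at 12.56, 12.42 and 12.47 against 12.34, 12.13 and 12.22 (-0.25 ± 0.08, adjusted p = 0.029). Psmb6, the caspase-like subunit, differed by -0.32 ± 0.11 (adjusted p = 0.048). With 1 of the 6 libraries of PND3 left out, Psmc2 passed in 2 of 6 fits and Psmb6 in 1 of 6.

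At PND14, when alveoli form, 9 members were lower in knockout and none higher, against 4.17% of all genes and 8.57% of bright genes lower. The standard median was -0.20, against 0.07 over all genes, and all knockout samples lay below wild type in 7 of 34 standard genes, as in 5.42% of all genes. Psmd7 stood at 9.85, 10.50 and 9.91 in wild type and 9.75, 9.44 and 9.33 in knockout, a difference of -0.58 ± 0.11 (adjusted p = 0.00048). Psmb7 stood at 10.08, 11.37 and 10.63 against 10.38, 9.49 and 9.64 (-0.85 ± 0.24, adjusted p = 0.020). Psma4, an alpha ring gene, stood at 11.51, 12.13 and 11.67 against 11.67, 11.24 and 11.10 (-0.43 ± 0.11, adjusted p = 0.0099). In each, wild-type library 2 was the highest, and in Psmb7 and Psma4 the groups overlapped. Psmd1, Psma1, Psmb2, Psmd8, Psmd10 and Psmd11 made up the 9, with differences between -0.39 and -0.27. These calls rested on wild-type library 2. Its thymocyte mean was 13.37, its cell cycle mean 11.75 against 9.15 to 9.65 in the other wild-type libraries of that age, and its leukocyte mean 11.24 against 8.92 to 9.89. Without it 0 of 39 members passed in limma, and without all libraries with high thymocyte genes 0 passed as well, with a standard median of -0.09. The second fit keeps 1 wild-type library at PND14 and assumes that it varies like the other groups. With array medians subtracted 1 member passed, Psmd7. The count was also 3 without knockout library 3, 4 without knockout library 2 and 14 without wild-type library 1. Thymus markers were lower in knockout in 3 of 4, namely Rag1, Dntt and Cd8b1, the genes that marked wild-type libraries 2 and 3. That count therefore restates the choice of those libraries. Cell cycle genes were lower in 11 of 11.

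In young adults at PND42, 3 members were higher in knockout (3.2% of all genes). Psmb7 stood at 9.94, 9.48 and 9.87 in wild type and 10.96, 11.38 and 11.40 in knockout, 1.49 ± 0.24 higher (adjusted p = 2.6e-05) or 2.81-fold. Psmc2 stood at 11.96, 11.82 and 12.10 against 12.35, 12.37 and 12.45, 0.43 ± 0.08 higher (adjusted p = 0.00011). Psmc4, another ATPase, stood at 11.36 in each wild-type sample and at 11.61, 12.07 and 12.13 in knockout (0.58 ± 0.14, adjusted p = 0.0077). No groups overlapped in these 3 genes, and Psmb7 and Psmc2 passed whichever library was left out. Other probe sets did not share the 2 ATPase differences: a second bright probe set gave 0.07 for Psmc2 (adjusted p = 0.89) and -0.01 for Psmc4 (adjusted p = 0.99). The remaining standard genes leaned the other way, with a median over all 34 of -0.07.

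Of the members, Psmb7 had the lowest p in the test that the knockout difference was equal at all ages (adjusted p = 7.1e-08). That difference ran from -1.02 at E13.5 to 1.49 at PND42, above 0 at 4 ages and below it at 7. It is read by 1 probe set. Its level also moved with the array sets: it was 12.17 to 13.07 in all 24 libraries of PND1 to PND4 and 9.48 to 12.69 in the others. Over the 22 group means it followed the mean of the other standard genes least, at a Pearson r of 0.22, whereas Psma3 had 0.97 and Psmc6 0.95. These correlations describe group means that share arrays and scaling.

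**Figure D4:**
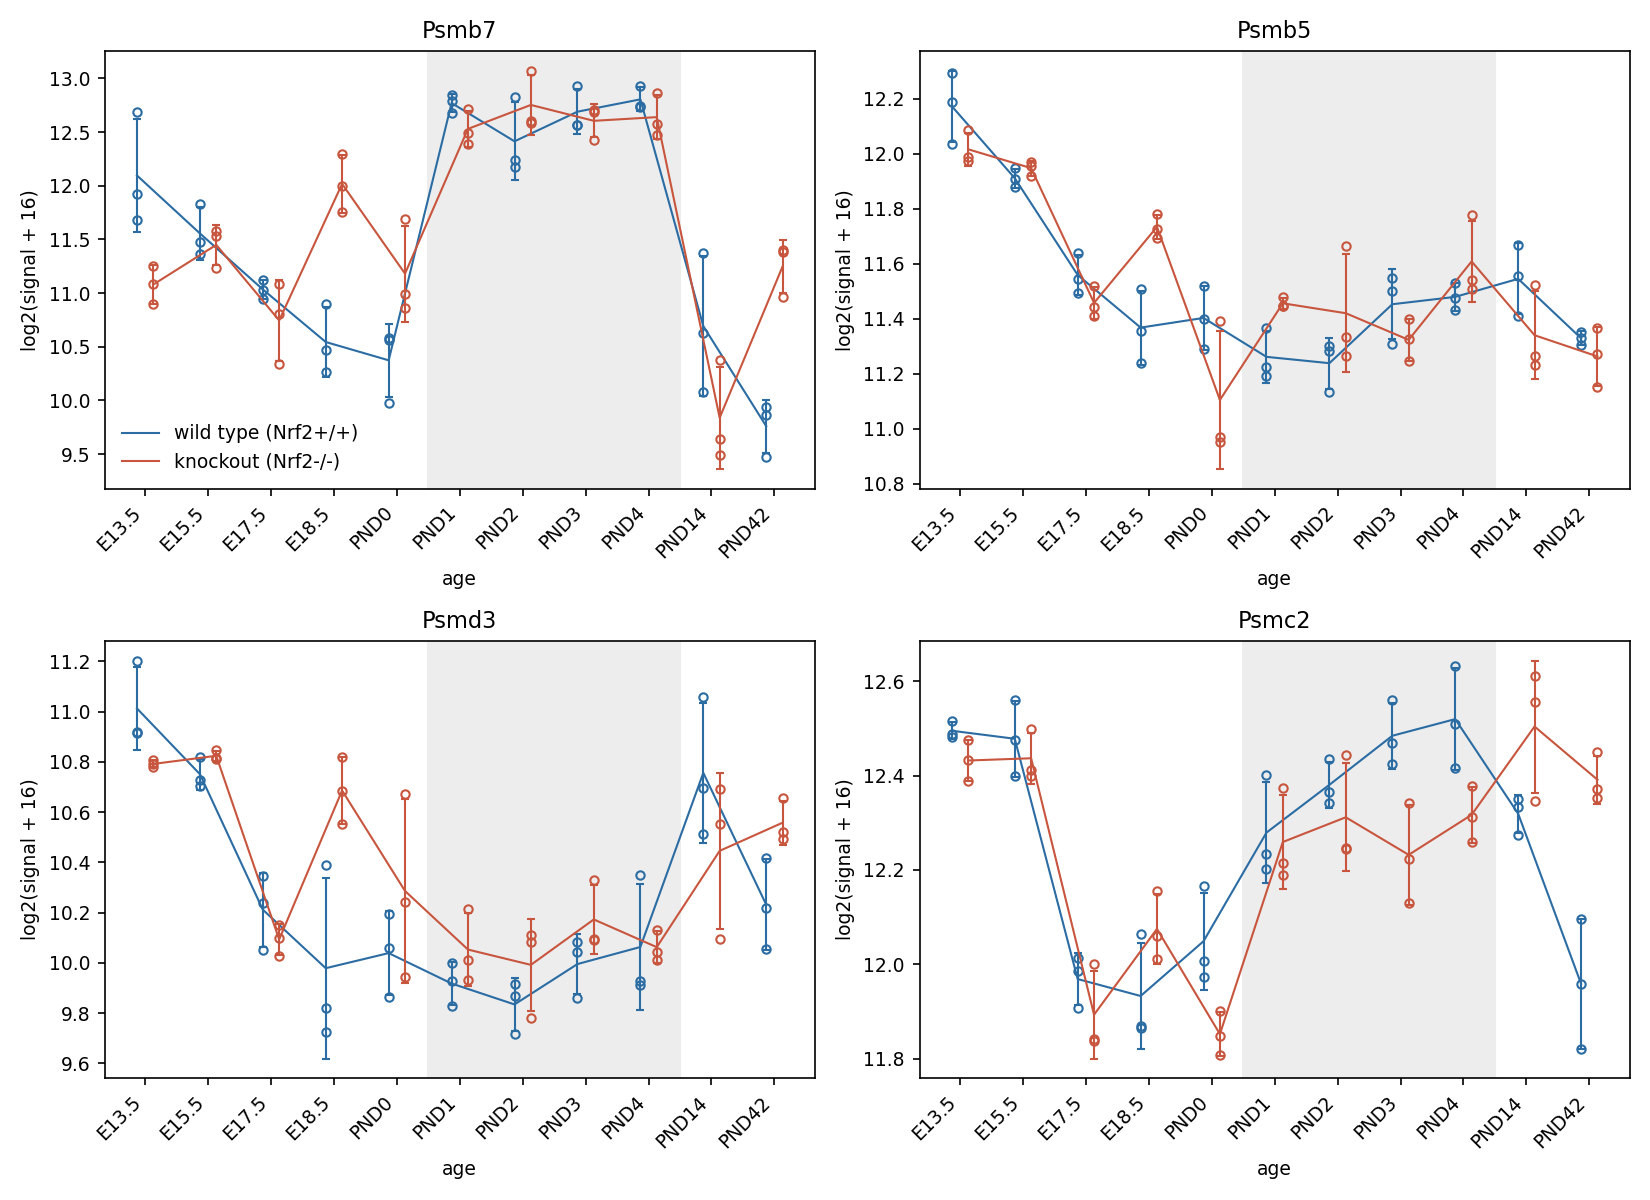
Log2 intensity of Psmb7, Psmb5, Psmd3 and Psmc2 against age, with 1 point per sample and lines through the group means of wild type and knockout. Knockout Psmb7 lies above wild type at E18.5, PND0 and PND42 and below it at E13.5 and PND14, whereas the other 3 genes differ by less than 0.8 at every age.

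The knockout difference depended on age in 23 of 39 members, where 35.1% of all genes and 60.7% of bright genes did, so the share is near that of genes of like brightness. Psmc2 was second (adjusted p = 4.3e-05), with differences from -0.25 at PND3 to 0.43 at PND42. Psma4 ran from -0.43 at PND14 to 0.41 at PND2, and Psmd5 from -0.41 at PND0 to 0.32 at E15.5. Over the 33 libraries of a genotype the lowest, median and highest levels of Psmc2 were 11.82, 12.34 and 12.63 in wild type and 11.81, 12.31 and 12.61 in knockout. Those of Psma4 were 11.40, 11.85 and 12.68 against 11.10, 11.84 and 12.56. Those of Psmd5 were 9.62, 10.02 and 10.58 against 9.35, 10.03 and 10.68, and those of Psmd10 were 8.97, 9.21 and 9.78 against 8.77, 9.03 and 9.89. Each range was shared by the genotypes. Psma5, Psmb5 and Psmd10 each had their lowest difference at PND0, at -0.42, -0.30 and -0.40, and Psmb2 at PND14, at -0.36.

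Age itself was called over the 7 ages outside PND1 to PND4 in 38 members in wild type and all 39 in knockout, against 65.8% and 69.7% of all genes and 92.8% and 95.9% of bright genes. The exception was Psma8 in wild type (adjusted p = 0.09). Between PND1 and PND4 age was called in 4 members in wild type (14.6% of all genes), namely Psma5, Psmb2, Psmc4 and Psmd14. In knockout it was called in 5 (20.2%), namely Psmd7, Psmc1 and the 3 immunoproteasome genes. From PND1 to PND4, 7 members rose in wild type (7.31% of all genes), led by Psmc4 at 0.55, Psmd14 at 0.53 and Psma1 and Psmd6 at 0.36 each, and 1 rose in knockout (4.91%), Psmd7 at 0.42. The step differed between genotypes in 0 members (limma, 1 at an unadjusted p under 0.05).

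After birth the standard genes moved in both directions. From PND0 to PND14, 9 members rose and 4 fell in wild type (8.94% and 7.85% of all genes), and 11 rose and 11 fell in knockout (22% and 12.4%). With array medians subtracted the split was 11 and 0 in wild type and 15 and 3 in knockout. Among standard genes Psmd3 rose by 0.72 in wild type and Psmd13 by 0.72 in knockout. The lid gene Psmd8 fell by 0.53 and 0.94, Psmd7 fell by 0.35 and 0.68 in wild type and knockout, and Psmb7 fell in knockout by 1.34. The change differed between genotypes in 3 members, more positive in knockout for Psma5 (0.48) and Psmc2 (0.38, with 6.87% of all genes) and more negative for Psmb7 (-1.66, with 3.13%). With array medians subtracted 0 were more positive and 1 more negative. That count was 6 without wild-type PND14 library 1 and 5 without library 3. From PND14 to PND42, 9 members fell in wild type (10.5% of all genes), led by Psmb7 at -0.93, Psmc4 at -0.67 and Psmd3 at -0.52. Without the libraries with high thymocyte genes 4 rose and 3 fell. In knockout 5 rose (6.98%) and 1 fell (8.2%): Psmb7 rose by 1.41 ± 0.24 (adjusted p = 3.8e-05), Psmb9, Psmb10, Psmd1 and Psmd11 rose, and Psmd13 fell by 0.65. With array medians subtracted 3 rose and 5 fell in knockout. The step differed between genotypes in 1 member, Psmb7, by 2.34 ± 0.34 (adjusted p = 3.4e-05, 0.956% of all genes), and that count was 4 without wild-type PND14 library 3 and 2 without wild-type PND14 library 1 or knockout PND14 library 1 or 2.

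The mean of the 3 immunoproteasome genes was 7.82 ± 0.25 (SD, n = 3) at E13.5 in wild type and 7.72 ± 0.60 in knockout, and reached 10.75 ± 0.26 and 10.63 ± 0.09 at PND42. The mean of 9 leukocyte genes ranged over 7.02 to 7.09 in wild-type and 6.42 to 7.41 in knockout E13.5 libraries. At PND42 it ranged over 9.32 to 9.92 and 9.38 to 9.64, and its part in the immunoproteasome levels was not tested. Psmb8, which replaces Psmb5, stood at 7.47, 6.94 and 6.98 in wild-type and 7.89, 6.16 and 6.88 in knockout E13.5 lung. At PND42 it stood at 10.52, 10.58 and 11.06 in wild type and 10.49, 10.45 and 10.60 in knockout. Psmb9, which replaces Psmb6, went from 7.61, 7.01 and 7.18 to 10.42, 10.54 and 11.04 in wild type and from 7.71, 6.47 and 7.09 to 10.52, 10.59 and 10.74 in knockout. Both genes overlapped between genotypes at each end of the series and between ages had no overlap. Psmb10, which replaces Psmb7, went from 9.27, 9.05 and 8.92 to 10.74, 10.83 and 11.07 in wild type and from 9.44, 8.83 and 8.98 to 10.65, 10.78 and 10.84 in knockout. From E13.5 to E18.5 Psmb8 rose by 1.75 ± 0.42 (adjusted p = 0.00066) in wild type and 1.86 ± 0.42 in knockout, and Psmb10 by 0.76 ± 0.19 and 0.54 ± 0.19. Psmb9 did not pass in either genotype, and the median of the 3 genes was 0.87 and 1.03. A second, dimmer Psmb8 probe set lay below 0 in this step in both genotypes and was not called. In knockout Psmb10 did not pass without E18.5 library 1 (0.34, adjusted p = 0.28), E13.5 library 2 (0.42, adjusted p = 0.2) or E13.5 library 3 (0.49, adjusted p = 0.12). To the libraries labelled E17.5 the knockout rise was 2.14 ± 0.42 for Psmb8, 1.24 ± 0.39 for Psmb9 and 0.75 ± 0.19 for Psmb10. The wild-type values to E17.5 were 1.03, 0.38 and 0.36, none passing (adjusted p = 0.061, 0.53 and 0.17). From PND0 to PND14 all 3 rose in both genotypes, Psmb9 by 1.67 ± 0.39 and 2.15 ± 0.39, Psmb8 by 1.30 ± 0.42 and 1.41 ± 0.42, and Psmb10 by 0.81 ± 0.19 and 0.84 ± 0.19. Without wild-type PND14 library 2 none passed in wild type, at 1.10 for Psmb9 (adjusted p = 0.055), 0.62 for Psmb8 (adjusted p = 0.39) and 0.51 for Psmb10 (adjusted p = 0.069). Psmb8 also did not pass without wild-type PND0 library 1 (1.13, adjusted p = 0.14) or 3 (1.05, adjusted p = 0.17). In knockout all 3 passed whichever PND0 or PND14 library was left out.

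Averaged over ages the immunoproteasome genes did not pass, with differences of -0.23 for Psmb8 (adjusted p = 0.28), -0.05 for Psmb9 and -0.07 for Psmb10. At PND0 all 3 knockout samples lay below all 3 wild-type samples in each gene (-0.997 for Psmb8, -1.06 for Psmb9 and -0.51 for Psmb10), and at E17.5 they lay above (0.97, 0.68 and 0.40), none passing. Of all genes 18.6% had the first order and 15.8% the second. Without wild-type PND0 library 2, which has high thymocyte genes, the PND0 differences were -0.59, -0.56 and -0.33. A second, dimmer Psmb8 probe set lay above 0 at PND0 and was not called. Psmb9 passed at PND0 without wild-type library 1 or 3 (-1.31 and -1.32, adjusted p = 0.047 each). At PND2 Psmb9 stood at 7.44, 7.76 and 7.64 against 9.81, 8.08 and 8.78 in knockout, and Psmb10 at 9.21, 9.53 and 9.45 against 10.46, 9.60 and 10.22. The highest knockout values of both genes belonged to libraries 1 and 3, the ones with high thymocyte genes. Likewise the wild-type PND14 library with the highest thymocyte mean had the highest Psmb8 of the series, 11.69, and stood at 11.03 for Psmb9 and 11.11 for Psmb10.

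Psmb11, the subunit of the thymic cortical epithelium, and Psma8, known from male germ cells, were dim. Psmb11 was 6.41 to 8.97 (median 7.47) in the 8 libraries with high thymocyte genes and 4.11 to 8.41 (median 5.08) in the other 58. The highest of those others were at E15.5, where wild type stood at 8.11, 8.13 and 8.41 and knockout library 1 at 8.21. Psma8 lay between 4.13 and 6.86 in all 66 libraries, and its average genotype difference was -0.14 (adjusted p = 0.4). Neither gene passed between genotypes at any age.

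**Figure D5:**
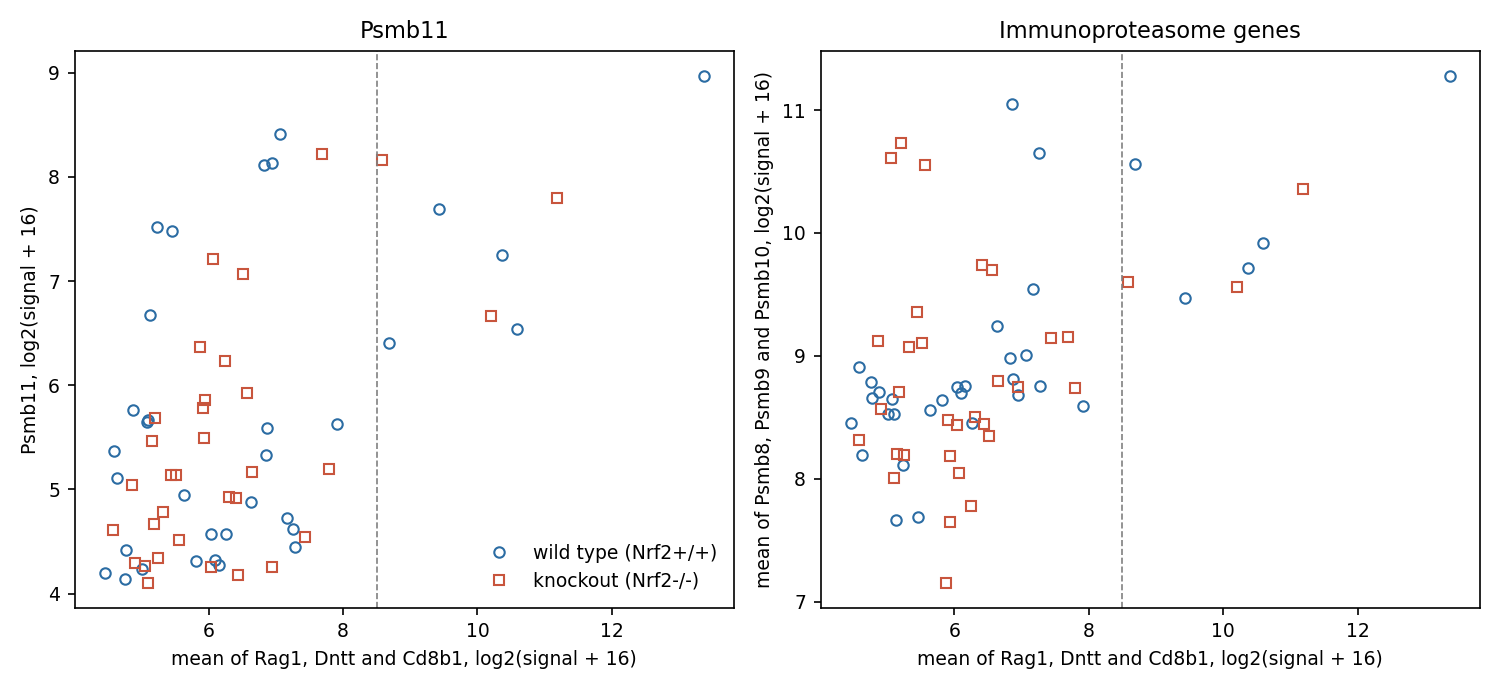
Psmb11 level and the mean of Psmb8, Psmb9 and Psmb10 (vertical axes, log2 intensity) against the mean of Rag1, Dntt and Cd8b1 (horizontal axis) in each of the 66 libraries, with a dashed line at 8.5. The 8 libraries right of the line hold Psmb11 at 6.41 to 8.97, and embryonic libraries reach 8.41 left of it.

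Context lists of genes that build or serve the proteasome were counted in the same steps. From E13.5 to E18.5 in wild type 25.2% of all genes fell and 20.1% rose, and at E18.5 7.1% were higher in knockout. In knockout 14.5% of all genes fell from E13.5 to E18.5 and 19.2% from E18.5 to birth. All 5 core assembly chaperones fell from E13.5 to E18.5 in wild type (median -0.73), with Psmg1 and Psmg4 at -0.99 each and the maturation factor Pomp at -0.39. In knockout 2 of 5 fell, at E18.5 itself 3 of 5 were higher in knockout (Psmg2 by 0.55, Psmg1 by 0.47 and Psmg4 by 0.45), and from E18.5 to birth 5 of 5 fell in knockout. With the knockout libraries labelled E17.5, 4 of 5 fell from E13.5 (20.6% of all genes) and 3 of 5 fell to birth (16.3%). Against wild-type E18.5, 0 of 5 differed (limma, 1 at an unadjusted p under 0.05). Of 12 ubiquitin receptors, shuttles and processing enzymes, 8 fell and 1 rose in the wild-type step, with the proteasomal deubiquitinases Usp14 at -0.91 and Uchl5 at -0.80. At E18.5, 5 of 12 were higher in knockout, among them Usp14 by 0.60 and the segregase Vcp by 0.23. With the knockout libraries labelled E17.5, 0 of 12 passed (limma, 2 at an unadjusted p under 0.05), and Usp14 and Vcp had 0.36 and -0.11. Of 4 activators and inhibitors, the interferon-inducible cap Psme1 rose by 0.81 from E13.5 to E18.5 in wild type, whereas Psme3 fell by 0.74 and Psme4 by 0.29.

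Of 9 antigen processing genes 8 rose in the wild-type step from E13.5 to E18.5 (median 1.24), where 20.1% of all genes rose. The class I gene H2-D1 led at 2.58, with the peptide-loading gene Tapbp at 1.75. At E18.5 H2-D1, Tapbp and Irf1 were lower in knockout by -0.71, -0.57 and -0.37. With the knockout libraries labelled E17.5 they had -0.03, -0.04 and -0.03, and 0 of 9 passed (limma, 0 at an unadjusted p under 0.05). H2-D1 (0.42) and H2-K1 (0.24) were higher on average over ages. Among 10 genes that control subunit transcription, Nfe2l1 differed by 0.02 both on average and at E18.5. Mafg, a small Maf partner, was lower on average by -0.17 (adjusted p = 0.0091). At E18.5 Nfya, a subunit of NF-Y, was higher in knockout by 0.53 (adjusted p = 0.0025), whereas Ngly1, the enzyme that activates the Nfe2l1 protein, was lower by -0.46 (adjusted p = 0.00022). With the knockout libraries labelled E17.5 neither passed, at -0.18 for Nfya (adjusted p = 0.68) and -0.08 for Ngly1 (adjusted p = 0.84).

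The 8 genes outside the list whose 22 group means correlated most with the mean of the standard genes, among 8931 with a mean level over 8, were Prmt1, Pold2, Aimp2 and Dhodh (Pearson r of 0.98 each) and Lsm3, Timm50, Lsm4 and Kars (0.97 each). They encode, in that order, an arginine methyltransferase, a DNA polymerase subunit, a tRNA synthetase scaffold, an enzyme of pyrimidine synthesis, an RNA-binding Lsm protein, a mitochondrial import protein, another Lsm protein and a lysyl-tRNA synthetase. Prmt1, Pold2 and the others share arrays and scaling with the members, so the correlation is a description. Within the members, Psmb9, Psmb10 and Psmb8 had r of -0.49, -0.59 and -0.70 with the standard mean.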

How the data were processed

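Lung RNA from 66 samples was hybridised to Affymetrix mouse arrays, with 3 biological replicates per group according to the labels. The deposited values are linear intensities, 1 per probe set and array, made by the authors with GCOS per the submitters' processing notes, and the version, algorithm and scaling are not given in the sources used here. Of the probe sets, 64 controls were left out and 45037 tested. Of the latter, 34945 had a single symbol, 932 several and 9160 none. The members' Entrez IDs all matched the GRCm38.p6 genes. Values were quantile normalized, and log2(value + 16) was fitted with limma 3.58.1 (R 4.3.3) as 22 group means with variances moderated by eBayes along an intensity trend (44 residual and 6.69 prior degrees of freedom). P-values are two-sided and adjusted by Benjamini-Hochberg over all 45037 probe sets at 0.05. Exact permutation of 3 against 3 cannot go below 0.1. The fit was tested on simulated data. Array correlations within groups were at least 0.9264, and no 2 arrays exceeded 0.9834. The number of arrays limits the precision.

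The members and lists were chosen with earlier results of these data known. Values per sample are given for members called on average, Psmb5, Psma1, Psmd1, the immunoproteasome genes, the 8 members that depended most on age and the largest changes at each age and step. Other genes came from lists of context genes. Alternatives were other scalings, pseudocounts, filters, weights, probe set summaries and left-out libraries. Promoter sequences are from RefSeq, GRCm38.p6. Figures were drawn with matplotlib.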

Additional observations from a re-analysis of the deposited data

Results flagged for a closer look

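The difference between knockout and wild type was tested for being equal at the 11 ages. Of 39 members, 23 failed that test at an adjusted p under 0.05 (limma F test). So did 35.1% of all genes and 60.7% of genes with a mean level of 10 or more, so the share is near that of bright genes. Psmb7 had an adjusted p of 7.1e-08, Psmc2 4.3e-05, Psma4 0.00077, Psmd5 0.00085, Psma5 0.00087, Psmb5 0.0018, Psmd10 0.0033, Psmb2 0.0046, Psmd1 0.0046, Psmd7 0.005, Psmc3 0.0051 and Psmb10 0.0076. The rest were Psmd3 at 0.0077, Psmd11 at 0.0079, Psmc1 at 0.008, Psmc4 at 0.011, Psmc5 at 0.013, Psmd2 at 0.013, Psmd8 at 0.017, Psmd6 at 0.021, Psmd13 at 0.028, Psma1 at 0.032 and Psmb9 at 0.034. An age step differed between the genotypes in 8 members from E13.5 to E18.5, in 21 from E18.5 to PND0, in 3 from PND0 to PND14 and in 1 from PND14 to PND42. In the directions of those members, 4.51%, 10.1%, 6.87% (more positive) or 3.13% (more negative), and 0.956% of all genes differed in these steps. With E17.5 in place of E18.5, the first 2 counts of members were 0 and 3, the second against 3.95% of all genes.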

How the results depend on the processing

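Counts of called members moved by over 1.5 times in these settings. With array medians subtracted, 1 member was called at PND0, 1 at PND2, 1 at PND3 and 1 at PND14, 2 in the genotype difference of the step to E18.5, 4 in that to birth, 1 in that to PND14, 12 in the knockout step to birth, 0 from PND1 to PND4 in either genotype, 10 for dependence on age, and for age over PND1 to PND4 10 in wild type and 1 in knockout. Deposited values gave 5 on average, 6 at E18.5, 0 at PND2, 17 at PND3, 3 at PND14, and for the same 3 step differences 2, 5 and 1. They also gave 0 and 8 in the wild-type steps to birth and PND14, 1 and 0 from PND1 to PND4, 15 for dependence on age and 1 for knockout age over PND1 to PND4. Array weights gave 7 on average, 2 at E13.5, 2 at E15.5, 3 at E17.5, 25 at E18.5, 15 at PND0, 7 at PND3, 6 at PND42, 13 in the step difference to E18.5, 5 and 25 in the wild-type steps to birth and PND14, 2 from PND1 to PND4 in knockout, and 9 and 8 for age over PND1 to PND4. The mean of all probe sets gave 1 on average, 1 each at PND3, PND4 and PND42, 11, 1 and 2 in the step differences to birth, PND14 and PND42, 6, 5 and 4 in the wild-type steps to PND14, PND42 and PND4, and reversed Psmc1 (-0.0014) and Psmd2 (-0.164) at E18.5. No intensity trend gave 1 at PND3, 5 in the step difference to E18.5, 4 from PND1 to PND4 and 2 for wild-type age over PND1 to PND4. Probe sets with a mean of at least 100 (22370, without Psma8 and Psmb11) gave 10 at PND0, 5 at PND3 and 2 from PND1 to PND4 in knockout. Quantile normalization within each array set gave 2 and 3 for age over PND1 to PND4. The 6 libraries of an age alone gave 0 at E13.5, 2 at E17.5, 3 at E18.5, 2 at PND0, 0 at PND2 and 0 at PND14. On average, 5 members passed over the 7 ages outside PND1 to PND4, 7 over PND1 to PND4, 5 without E13.5 and 6 without E17.5 and E18.5. Without the 8 libraries with high thymocyte genes, chosen after seeing the data, 2 passed at E13.5, 3 at PND0, 1 at PND1, 1 at PND2, 6 at PND3, 0 at PND14, 5 at PND42, 14 in the step difference to E18.5, 1 in that to PND14, 2 in the wild-type step to birth, 12 in the knockout step to PND42, 3 from PND1 to PND4 in knockout, and 9 and 8 for age over PND1 to PND4. Also chosen after seeing the data, the knockout libraries labelled E17.5 in place of E18.5 gave 1 at E18.5, and steps with E17.5 gave differences of 0 and 3. The causes were not tested. Pseudocounts of 1 and 64 moved no count and lost no call. The direction of members called between genotypes held in 657 of 659 pairs of a called member and a refit. These refits share arrays and are not independent. The knockout libraries labelled E17.5 and the filter on a mean of at least 100 were not among them.

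Leaving out single libraries gave 2 to 4 on average, 0 to 2 at E13.5, 0 at E15.5, E17.5, PND1 and PND4, 4 to 21 at E18.5, 3 to 7 at PND0, 0 to 5 at PND2, 1 to 4 at PND3, 0 to 14 at PND14 and 2 to 3 at PND42. In the steps to E18.5, birth, PND14, PND42 and PND4 it gave 32 to 35, 0 to 4, 10 to 16, 7 to 12 and 2 to 6 in wild type, 22 to 27, 14 to 23, 17 to 23, 5 to 8 and 0 to 2 in knockout, and 2 to 10, 10 to 26, 2 to 6, 1 to 4 and 0 between them. It gave 19 to 28 for dependence on age, 37 to 38 and 37 to 39 for age over 7 ages, and 1 to 4 and 2 to 7 over PND1 to PND4.

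The replicate numbers did not pair the samples: the deviations of same-numbered wild-type and knockout libraries correlated at -0.28 to 0.29 over 33 pairs. With the number as a replicate block, 13 members were called at E18.5, 9 at PND14, 3 on average and 24 for dependence on age, and no call of a member was lost. With 3 arrays per group, dim genes such as Psma8 are least precise.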
